A study of Mus musculus with 6 samples.

Results

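The genes described here encode core components of the basement membrane, the thin sheet of matrix on which epithelial, mesothelial and endothelial cells rest. They are the type IV collagen chains Col4a1, Col4a2, Col4a5 and Col4a6, the nidogens Nid1 and Nid2, the laminin chains Lama5, Lamb1 and Lamc1, and the heparan sulfate proteoglycan perlecan (Hspg2). They were taken by gene symbol from a list of 10 names, and all 10 were found among the 49315 genes of the count table and passed the filter on low counts that left 16033 genes. RNA sequencing had been carried out on TKO cells, a triple-knockout mouse ovarian cancer line whose 3 deleted genes are not named in the labels. The 3 MNRR1-knockout (KO) libraries carry a single clone name, so they stand for 1 clone. The 3 wild-type (WT) libraries are the same TKO line with MNRR1 intact, so both groups share the triple knockout. MNRR1 is the protein of Chchd2 and acts in mitochondria and in the nucleus. The comparison addressed how expression differs between this KO clone and WT cells. With 1 clone, loss of MNRR1 and other differences of that clone cannot be told apart.

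Laminins are trimers of an alpha, a beta and a gamma chain that polymerise at the cell surface. Type IV collagen is secreted as trimers, most widely of alpha 1 and alpha 2 chains and in some tissues of alpha 5 and alpha 6 chains, and forms a second network. Nidogens and perlecan bind laminin and collagen IV and link the networks. In the ovary, a basement membrane lies under the surface epithelium and around follicles, and carcinoma cells can make their own.

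In KO cells the linker gene Nid1 and the paired collagen genes Col4a1 and Col4a2 were at 2.66%, 9.96% and 12.7% of their WT levels. Perlecan, Lamb1 and Lama5 fell by smaller amounts, Col4a6 rose slightly, and Col4a5, Nid2 and Lamc1 did not pass the test. Of the 10 genes, 6 were called lower and 1 was called higher at an adjusted p under 0.05, where 27.8% of all tested genes were called lower and 27.8% higher. At least a 2-fold fall was called for 3 of the 10, against 6.01% of all tested genes. The ranges of KO and WT libraries were apart for 7 of the 10 genes, and the same held for 64% of all tested genes. The median log2 change was -0.36 for the 10 genes and 0.01 for all tested genes. Because the 10 genes were chosen with earlier results of these data known, these shares and medians are descriptive. They are no test of whether basement membrane genes changed more than others. Scaling by library totals called 5771 of all tested genes higher and 3294 lower, against 4463 and 4462 with the main scaling, described below. With library totals, 2 of the 10 were called higher and 5 lower.

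Gene spans below are those of GENCODE M21 on GRCm38. Levels are given as CPM, a gene's count scaled to library size, with library sizes adjusted by edgeR's trimmed mean of M values (TMM), and a value after ± is the SD over the 3 libraries of a genotype. Library totals ran from 33226463 to 39969012 counts in KO and from 35328663 to 40983999 in WT libraries, and mitochondrial DNA took 2.03% to 2.18% and 2.32% to 2.54% of them. Chchd2 itself was at 16.6, 17.6 and 16.9 CPM in KO replicates 1 to 3, against 367, 349 and 340 CPM in WT replicates 1 to 3, which put KO at 4.85% of WT and fits the labels. Markers of the ovarian surface and of epithelium were present in both genotypes, with means of 677 CPM for Wt1 and 283 CPM for Krt8 in KO, against 719 and 480 CPM in WT. Of the 10 markers listed, 9 were tested, and 2 rose and 4 fell, beside 27.8% of all tested genes each way. Krt19 and Muc16 rose, by 0.44 and 0.46 on the log2 scale, and Krt7, Msln, Krt8 and Krt18 fell to 27.2%, 38.4%, 58.9% and 68.4% of their WT levels. Epcam and Pax8 averaged 2.42 and 0.0259 CPM in KO, against 2.28 and 0.313 CPM in WT, and Cdh1 was under 1 CPM in both. Because these are bulk libraries, fewer cells of a type and less RNA per cell cannot be told apart. Replicates are not stated to be separate cultures, so the p-values measure the spread between these libraries, which may be technical.

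Col4a1 and Col4a2 lie head to head on chromosome 8 and Col4a5 and Col4a6 on the X chromosome, which is why their promoters are shown together. Each sequence below runs from 250 bases before to 50 bases after the RefSeq start site (GRCm38.p6), 5′ to 3′ on the gene's own strand. The windows of Col4a1 (chr8:11312777-11313076, minus strand) and Col4a2 (chr8:11312555-11312854, plus strand) share 78 bases, printed in capitals, so the capitals of either are the reverse complement of the other.
Col4a1: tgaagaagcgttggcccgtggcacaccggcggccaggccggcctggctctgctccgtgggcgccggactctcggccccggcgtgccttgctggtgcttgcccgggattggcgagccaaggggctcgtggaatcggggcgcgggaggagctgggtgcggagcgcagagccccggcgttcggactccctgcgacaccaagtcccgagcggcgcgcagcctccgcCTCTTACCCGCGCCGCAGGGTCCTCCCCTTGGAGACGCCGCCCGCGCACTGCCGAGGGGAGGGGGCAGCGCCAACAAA
Col4a2: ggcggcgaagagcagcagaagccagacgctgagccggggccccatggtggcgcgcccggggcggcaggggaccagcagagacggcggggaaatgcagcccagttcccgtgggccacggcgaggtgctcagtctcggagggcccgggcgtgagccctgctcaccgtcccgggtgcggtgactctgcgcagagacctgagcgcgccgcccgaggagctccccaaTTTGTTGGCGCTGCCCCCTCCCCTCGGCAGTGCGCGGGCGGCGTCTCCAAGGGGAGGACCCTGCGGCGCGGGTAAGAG
The annotated starts of Col4a1 and Col4a2 are 21 bases apart and their transcripts overlap there by 22 bases. Col4a5 (chrX:141475169-141475468, plus strand) and Col4a6 (chrX:141474027-141474326, minus strand) start 1343 bases apart and point away from each other, and their windows share no base. In these 2 windows and that of Nid1 (chr13:13437352-13437651, plus strand), the gene with the deepest fall, capitals mark the GC box GGGCGG on either strand.
Col4a5: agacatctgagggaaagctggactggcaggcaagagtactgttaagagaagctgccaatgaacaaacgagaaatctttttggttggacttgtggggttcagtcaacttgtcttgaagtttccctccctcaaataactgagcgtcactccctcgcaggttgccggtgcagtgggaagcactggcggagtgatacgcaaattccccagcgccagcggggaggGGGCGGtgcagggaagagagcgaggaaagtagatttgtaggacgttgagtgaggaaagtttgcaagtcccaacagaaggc
Col4a6: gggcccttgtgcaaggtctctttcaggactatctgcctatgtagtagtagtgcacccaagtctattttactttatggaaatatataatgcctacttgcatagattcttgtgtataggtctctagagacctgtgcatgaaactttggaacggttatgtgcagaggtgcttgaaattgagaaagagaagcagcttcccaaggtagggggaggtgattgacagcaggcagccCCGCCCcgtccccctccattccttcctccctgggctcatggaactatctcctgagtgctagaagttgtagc
Nid1: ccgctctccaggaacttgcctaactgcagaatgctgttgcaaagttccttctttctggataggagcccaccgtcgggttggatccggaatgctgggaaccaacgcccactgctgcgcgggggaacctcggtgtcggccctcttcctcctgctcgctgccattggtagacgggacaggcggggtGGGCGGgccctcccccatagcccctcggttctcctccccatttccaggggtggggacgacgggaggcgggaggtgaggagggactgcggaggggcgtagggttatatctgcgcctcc
RefSeq windows were at hand for 8 of the 10 genes, with Nid2 and Lamc1 as the others. Motifs were searched on both strands. GGGCGG was found in 8 of 8 windows and in 35.7% of 32841 mouse promoter windows of the same length, and 1 match lies in the stretch that Col4a1 and Col4a2 share, so it counts for both. CCAAT was found in 5 of 8 windows, against 37.4% of all windows. Neither TATAAA nor the AP-1 site TGACTCA or TGAGTCA was found in the 8 windows, and 13.6% and 5.2% of all windows hold them. The ratio of observed to expected CpG was 0.902 for Col4a1 and 0.818 for Col4a2, 0.64 for Nid1, 0.561 for Col4a5 and 0.172 for Col4a6. The pair that fell is thus denser in CpG than the X-linked pair. However, Hspg2, which fell less, was at 0.877, between Col4a1 and Col4a2. Lamb1 and Lama5, with smaller falls still, were at 0.615 and 0.607, near Nid1. A link between CpG ratio and change was not tested.

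**Figure D1:**
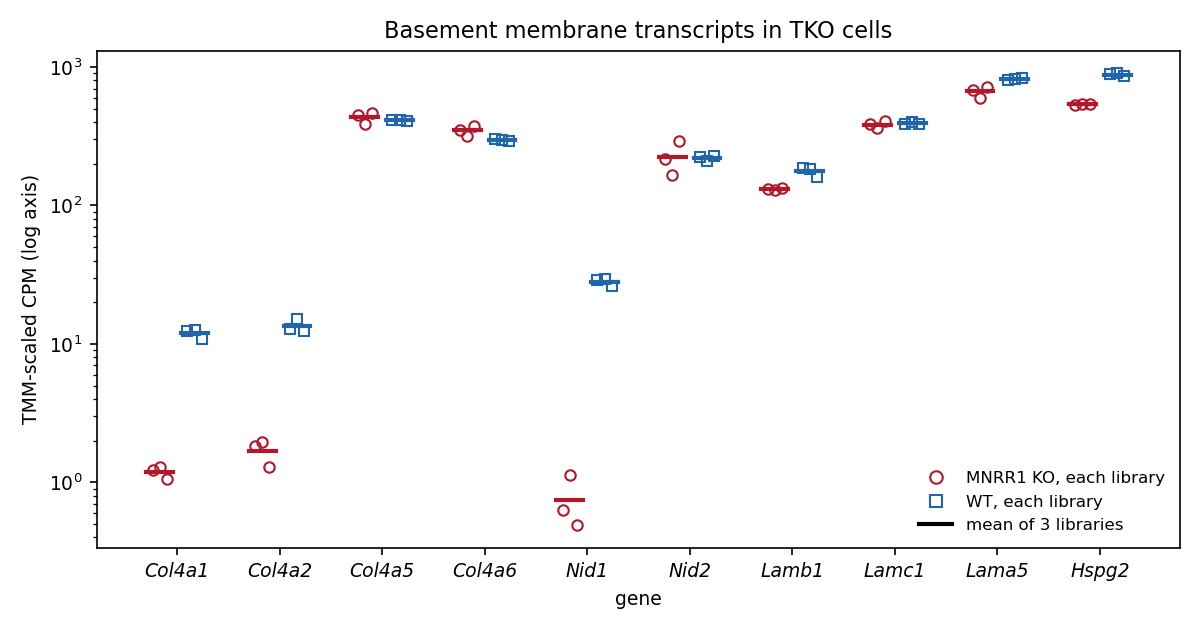
TMM-scaled CPM (log axis) of the 10 basement membrane genes in each library, MNRR1 KO as red circles and WT as blue squares, with bars at the mean of 3 libraries. Nid1, Col4a1 and Col4a2 lie at 0.489 to 1.96 CPM in KO and 10.9 to 29.2 CPM in WT libraries, while the other 7 genes lie above 100 CPM in both.

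Col4a1 (ENSMUSG00000031502, chr8:11198423-11312826, minus strand), which encodes the alpha 1 chain of the ubiquitous collagen IV network, had 43, 52 and 41 counts in KO replicates 1 to 3, against 434, 423 and 433 counts in WT replicates 1 to 3. These are 1.23, 1.28 and 1.06 CPM in KO, against 12.4, 12.5 and 10.9 CPM in WT. Every KO library lay far below every WT library, and the spread within each genotype was small beside the gap. The fitted log2 change was -3.32 (SE 0.14, BH-adjusted p = 4.48e-08, edgeR's quasi-likelihood test).

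Col4a2 (ENSMUSG00000031503, chr8:11312805-11449287, plus strand), the partner chain, had 64, 80 and 50 counts in KO, against 444, 508 and 493 counts in WT replicates 1 to 3. Its levels were 1.83, 1.96 and 1.29 CPM in KO, against 12.7, 15 and 12.4 CPM in WT. The genotypes again did not overlap, and KO replicate 3 was the lowest. The log2 change was -2.98 (SE 0.16, BH-adjusted p = 2.6e-07, edgeR's quasi-likelihood test), and KO stood at 12.7% of WT beside 9.96% for Col4a1.

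Within a library, the ratio of Col4a2 to Col4a1 counts does not depend on scaling. It was 1.49, 1.54 and 1.22 in KO, against 1.02, 1.2 and 1.14 in WT replicates 1 to 3. The lowest KO ratio lay just above the highest WT ratio. In these libraries Col4a1 thus fell somewhat more than Col4a2, although the difference was small beside the falls of both chains. The log2 difference of the ratio was 0.33, with p = 0.1 in an exact two-sided permutation test, the smallest p that 3 against 3 libraries allow. This and 3 other chain ratios were compared, and all 4 gave this p, which Benjamini-Hochberg adjustment over the 4 leaves at 0.1.

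Col4a5 (ENSMUSG00000031274, chrX:141475385-141689234, plus strand) and Col4a6 (ENSMUSG00000031273, chrX:141165403-141474076, minus strand), the X-linked chains, were abundant in both genotypes. Col4a5 was at 449, 387 and 463 CPM in KO, against 417, 412 and 410 CPM in WT replicates 1 to 3. The KO libraries lay on both sides of the WT range, and the log2 change of 0.07 (95% interval -0.08 to 0.21) did not pass the test (BH-adjusted p = 0.412, edgeR's quasi-likelihood test). Without KO replicate 2 it was 0.14 and passed the test (BH-adjusted p = 0.00559, same edgeR test), and with scaling by library totals it was 0.19 and passed as well (BH-adjusted p = 0.043, same edgeR test).

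Col4a6 was at 353, 320 and 378 CPM in KO, against 304, 297 and 292 CPM in WT replicates 1 to 3. All KO libraries were above the WT libraries by a small margin, and the log2 change of 0.23 (SE 0.06) passed the test (BH-adjusted p = 0.00817, edgeR's quasi-likelihood test). The ratio of Col4a6 to Col4a5 counts was 0.787, 0.826 and 0.816 in KO, against 0.73, 0.722 and 0.71 in WT libraries. It was higher in all 3 KO libraries, by 0.17 on the log2 scale (exact two-sided permutation p = 0.1, the smallest possible).

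**Figure D2:**
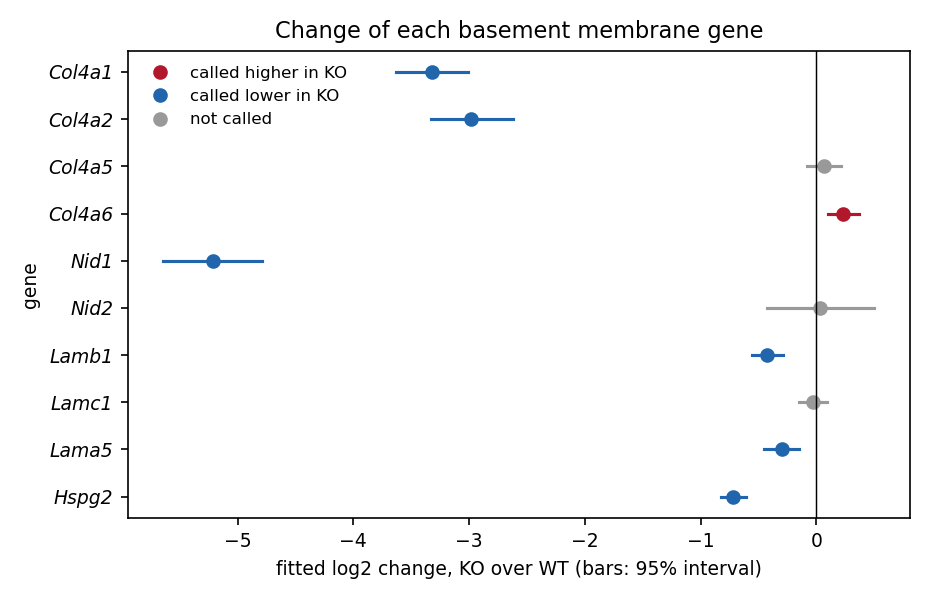
Fitted log2 change of each basement membrane gene, KO over WT, with its 95% interval. Nid1, Col4a1 and Col4a2 stand at -5.21, -3.32 and -2.98, and the other 7 lie between -0.72 and 0.23.

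Per kb of exon, which allows genes to be compared, the 6 collagen IV chains summed to 109 ± 9.5 CPM per kb in KO, against 102 ± 1.37 CPM per kb in WT libraries (SD, n = 3 each). Col4a5 took 59.8%, 58.6% and 59.0% of that sum in KO, against 59.8%, 59.8% and 60.5% in WT replicates 1 to 3, and Col4a6 took 40.4% on average in KO, against 36.4% in WT. Col4a1 and Col4a2 together took 0.387 ± 0.0943% in KO and 3.53 ± 0.278% in WT libraries. Thus the pair most widely used in other tissues was a minor part of collagen IV transcripts in this line in either genotype. Col4a3 and Col4a4, the chains known from kidney glomeruli, were at 0.0978 and 0.663 CPM in KO, against 0.0182 and 0.394 CPM in WT. Col4a3 was below the filter, and Col4a4 missed the threshold (BH-adjusted p = 0.0533, edgeR's quasi-likelihood test).

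Nid1 (ENSMUSG00000005397, chr13:13437551-13512269, plus strand) encodes nidogen-1, a glycoprotein that binds the laminin gamma 1 chain and collagen IV. It had 22, 46 and 19 counts in KO replicates 1 to 3, against 1015, 990 and 1049 counts in WT replicates 1 to 3. These are 0.629, 1.13 and 0.489 CPM in KO, against 29, 29.2 and 26.4 CPM in WT. WT libraries were nearly level, while KO replicate 2 had about the sum of the other 2 KO libraries and was still far below WT. The log2 change was -5.21 (SE 0.19, BH-adjusted p = 2.4e-08, edgeR's quasi-likelihood test), which ranked 47 from the lowest among the 16033 tested genes.

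Nid2 (ENSMUSG00000021806, chr14:19751265-19811787, plus strand), which encodes the related nidogen-2, was at 217, 165 and 292 CPM in KO, against 223, 208 and 227 CPM in WT replicates 1 to 3. KO libraries spread widely around the WT range, and the log2 change of 0.03 (95% interval -0.43 to 0.5) did not pass the test (BH-adjusted p = 0.899, edgeR's quasi-likelihood test). A change within that interval was not detectable at this spread. Exons of Nid2 overlap those of Rtraf on the other strand over 8.45% of their length, and the strand setting of the counting was not given in the sources used here. Without KO replicate 3 the log2 change was -0.2 and without KO replicate 2 it was 0.21.

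The ratio of Nid2 to Nid1 counts was 345, 146 and 597 in KO, against 7.7, 7.13 and 8.6 in WT replicates 1 to 3. The lowest KO ratio was many times the highest WT ratio, with an exact two-sided permutation p of 0.1, the smallest possible. Per kb, the nidogens summed to 43.5 ± 12.3 CPM per kb in KO, against 46.5 ± 1.8 CPM per kb in WT libraries (SD, n = 3 each), and Nid1 took 0.283 ± 0.2% of the sum in KO and 8.75 ± 0.75% in WT. The summed level thus differed by less than the spread between KO libraries.

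Lama5 (ENSMUSG00000015647, chr2:180176373-180225859, minus strand) encodes the laminin alpha 5 chain, the widest-spread alpha chain of adult epithelia. It was at 678, 602 and 719 CPM in KO, against 802, 824 and 835 CPM in WT replicates 1 to 3. All KO values were below all WT values, with a log2 change of -0.3 (SE 0.07, BH-adjusted p = 0.00276, edgeR's quasi-likelihood test). The call was lost with scaling by library totals, where the log2 change was -0.18 and the BH-adjusted p 0.0553 (same edgeR test).

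Lamb1 (ENSMUSG00000002900, chr12:31265234-31329644, plus strand), the beta 1 chain, was at 131, 129 and 134 CPM in KO, against 186, 183 and 161 CPM in WT replicates 1 to 3. The KO libraries were nearly level and all lower, and the log2 change was -0.43 (SE 0.06, BH-adjusted p = 1.55e-04, edgeR's quasi-likelihood test). Lamc1 (ENSMUSG00000026478, chr1:153218922-153332786, minus strand), the gamma 1 chain, was at 385, 361 and 405 CPM in KO, against 386, 398 and 391 CPM in WT. Its genotypes overlapped, and its log2 change of -0.03 had a 95% interval of -0.15 to 0.09 (BH-adjusted p = 0.666, edgeR's quasi-likelihood test).

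The ratio of Lamc1 to Lamb1 counts was 2.94, 2.8 and 3.03 in KO, against 2.08, 2.18 and 2.43 in WT libraries, higher in all 3 KO libraries (exact two-sided permutation p = 0.1, the smallest possible). Lamb2, which encodes the beta 2 chain that can take the place of beta 1, was at 165 ± 27.1 CPM in KO, against 134 ± 3.03 CPM in WT (SD, n = 3 each). Its log2 change of 0.3 was called higher (BH-adjusted p = 0.0292, edgeR's quasi-likelihood test), although KO replicate 2 at 137 CPM lay within the WT range. Among beta chains per kb, Lamb2 took 67.0 ± 3.3% in KO and 55.3 ± 1.9% in WT, and the beta chains summed to 40.4 ± 4.7 CPM per kb in KO, against 39.8 ± 1.57 CPM per kb in WT. Lama5 took 99.5% of alpha chain transcripts per kb in KO and 99.1% in WT.

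Hspg2 (ENSMUSG00000028763, chr4:137468769-137570630, plus strand) encodes perlecan, which carries heparan sulfate and binds growth factors. It was at 534, 541 and 537 CPM in KO, against 888, 901 and 857 CPM in WT replicates 1 to 3. Both genotypes were tight and well apart, and the log2 change was -0.72 (SE 0.05, BH-adjusted p = 1.35e-06, edgeR's quasi-likelihood test), with KO at 60.9% of WT. Agrin (Agrn), the other large heparan sulfate proteoglycan of basement membranes, was at 179 ± 5.98 CPM in KO, against 234 ± 8.07 CPM in WT and fell by 0.39 on the log2 scale (BH-adjusted p = 8.77e-05, edgeR's quasi-likelihood test). Col18a1, the third, rose by 0.21 (404 ± 28.6 CPM in KO, against 349 ± 8.23 CPM in WT, BH-adjusted p = 0.0109, edgeR's quasi-likelihood test).

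The order of levels per kb differed between genotypes. In KO libraries it ran Col4a5, Lama5, Lamc1, Col4a6, Nid2, Hspg2, Lamb1, Col4a2, Col4a1 and Nid1, at means of 64.4 to 0.108 CPM per kb. In WT libraries it ran Lama5, Hspg2, Col4a5, Lamc1, Nid2, Col4a6, Lamb1, Nid1, Col4a2 and Col4a1, at means of 72.0 to 1.6 CPM per kb. Neighbours in the KO order overlapped in their ranges for Col4a5 with Lama5, for each step from Lamc1 to Hspg2, and for Col4a1 with Nid1. In the WT order, Hspg2 and Col4a5 overlapped. Among the KO libraries, replicate 2 had the highest CPM for 4 of the 10 genes (Col4a1, Col4a2, Nid1 and Hspg2) and the lowest for the other 6.

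**Figure D3:**
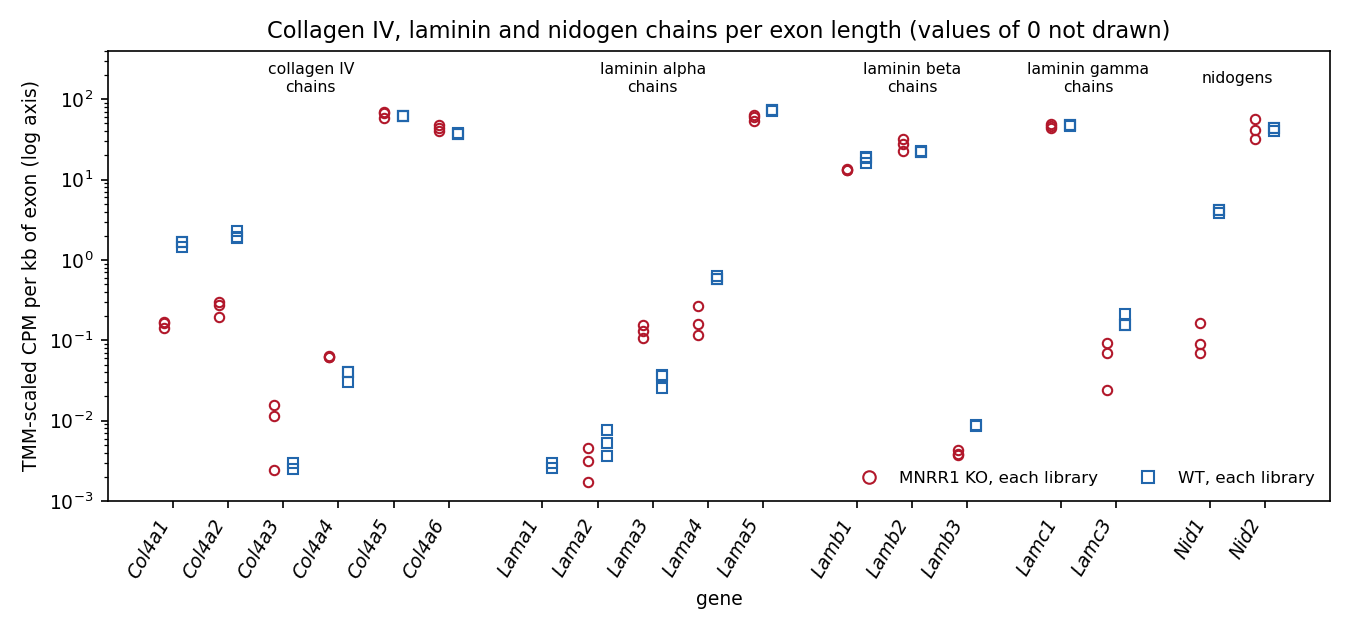
TMM-scaled CPM per kb of exon (log axis) of collagen IV, laminin and nidogen chain genes in each library, MNRR1 KO as red circles and WT as blue squares; values of 0 are not drawn. Col4a5, Col4a6, Lama5, Lamb1, Lamb2, Lamc1 and Nid2 lie above 10 CPM per kb in both genotypes, and the other chains drawn below 5 CPM per kb.

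Of the 10 other collagen IV and laminin chain genes, 6 were tested, of which 2 rose (Lamb2, given above, and Lama3) and 3 fell (median log2 change -0.59). Of all tested genes, 27.8% rose and 27.8% fell. Lama4, a chain typical of vessels and mesenchyme, was at 2.18 ± 0.92 CPM in KO, against 7.24 ± 0.357 CPM in WT, a log2 change of -1.73. Lamc3 was low in both genotypes, at 0.381 ± 0.214 CPM in KO, against 1.06 ± 0.196 CPM in WT, a log2 change of -1.48. Lama3, which encodes an alpha chain of epithelial laminins, was at 1.41 ± 0.25 CPM in KO, against 0.354 ± 0.0669 CPM in WT and rose by 1.99 on the log2 scale (BH-adjusted p = 1.81e-04, edgeR's quasi-likelihood test). Lamb3, a beta chain gene, was below the filter.

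Of 20 other basement membrane components, 17 were tested, and 5 rose and 11 fell (median log2 change -0.53), beside 27.8% of all tested genes each way. Pxdn, which encodes peroxidasin, the enzyme that cross-links collagen IV trimers, was at 19.6, 17.4 and 16.1 CPM in KO, against 3.34, 3.39 and 2.92 CPM in WT. It rose in every KO library, by 2.46 on the log2 scale (SE 0.12, BH-adjusted p = 1e-07, edgeR's quasi-likelihood test). Tinagl1, a laminin-binding matrix protein gene, was at 9.69 ± 2.31 CPM in KO, against 55.1 ± 5.56 CPM in WT, a log2 change of -2.51. Smoc2, of the SPARC family, was at 0.28 ± 0.0322 CPM in KO, against 1.96 ± 0.138 CPM in WT. Its log2 change was -2.79, while its relative Smoc1 rose by 1.77. Hmcn1 (hemicentin-1) had 0, 0 and 4 counts in KO, against 38, 49 and 56 counts in WT. Its fitted log2 change of -5.11 was -8.6 without KO replicate 3, the library that held its KO counts. No KO count was left in that fit, so the value of -8.6 is no measure of size. Fras1, of the complex that anchors epithelial basement membranes, was at 123 ± 5.35 CPM in KO, against 291 ± 0.404 CPM in WT, a log2 change of -1.25.

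Of 14 genes for receptors of the basement membrane, 13 were tested, and 2 rose, 7 fell and 4 were not called (median log2 change -0.38). The shares of all tested genes were 27.8% called higher and 27.8% called lower. Itgb1, the common beta subunit of laminin and collagen integrins, was at 535 ± 25.5 CPM in KO, against 694 ± 4.48 CPM in WT, and the syndecan gene Sdc4 was at 184 ± 23 CPM in KO, against 446 ± 30.4 CPM in WT, log2 changes of -0.38 and -1.28. The laminin receptor genes Itga6 and Bcam were at -1.24 and -0.59, and Itgb4, which pairs with Itga6 in hemidesmosomes, rose by 1.39, at 5.31 ± 1.39 CPM in KO, against 2.02 ± 0.145 CPM in WT (SD, n = 3 each). Dystroglycan (Dag1), which binds laminin and perlecan, was at 683 ± 47.9 CPM in KO, against 659 ± 13.4 CPM in WT and was not called (BH-adjusted p = 0.49, edgeR's quasi-likelihood test).

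Of 16 genes for the modification and export of collagen chains, 15 were tested, and 1 rose and 8 fell (median log2 change -0.17). Among all tested genes, 27.8% rose and 27.8% fell, which makes 55.7% called either way. With scaling by library totals 5 rose and 4 fell, and that scaling moved the median log2 change of all tested genes from 0.01 to 0.13. The prolyl 3-hydroxylase gene P3h2 was at -0.87, the lysyl hydroxylase gene Plod3 at -0.63 and the prolyl 4-hydroxylase gene P4ha1 at -0.47. The coat protein gene Sec23a, used in the export of collagen from the endoplasmic reticulum, rose by 0.38. Serpinh1, the collagen chaperone gene, was at 1408 ± 35.3 CPM in KO, against 1319 ± 32.1 CPM in WT (log2 change 0.09, BH-adjusted p = 0.145, edgeR's quasi-likelihood test), and Mia3, which loads collagen into carriers, was at 118 CPM in both.

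Of 15 genes for the breakdown of basement membrane and its inhibition, 10 were tested, and 1 rose and 7 fell (median log2 change -1.14). The share of all tested genes was 27.8% each way. Both proteases and inhibitors were among those that fell. The membrane-bound protease gene Mmp14 was at 0.147 ± 0.0295 CPM in KO, against 6.91 ± 0.432 CPM in WT, and the inhibitor genes Timp3 and Timp1 were at 147 ± 52 and 22.9 ± 3.49 CPM in KO, against 851 ± 72.3 and 58.6 ± 2.45 CPM in WT (SD, n = 3 each). Their log2 changes were -5.51, -2.53 and -1.36. Mmp15, another membrane-bound protease gene, rose by 1.85, at 270 ± 26.8 CPM in KO, against 74.9 ± 7.54 CPM in WT (BH-adjusted p = 1.63e-07, edgeR's quasi-likelihood test). The collagen IV-degrading gelatinase genes Mmp2 and Mmp9 were at 1.24 and 0.215 CPM in KO, against 1.05 and 0.131 CPM in WT. Mmp2 was not called (BH-adjusted p = 0.498, edgeR's quasi-likelihood test) and Mmp9 was below the filter.

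**Figure D4:**
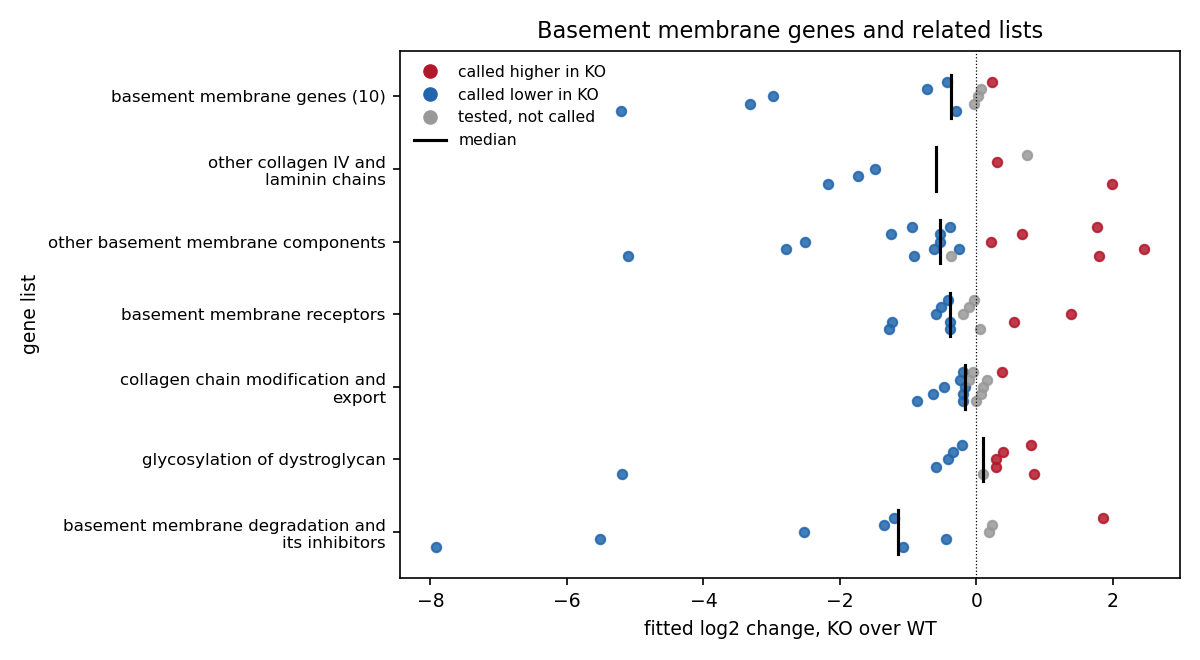
Fitted log2 change, KO over WT, of each tested gene of 7 lists, with the median of each list as a bar. The medians run from -1.14 for genes of degradation to 0.09 for dystroglycan glycosylation. The point at -7.92 is Mmp16, which had 0 counts in KO libraries, so its fitted value is no measure of size.

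Endothelial cells and pericytes are rich sources of collagen IV and Nid1 in tissue, so their markers are given beside these results. The 7 endothelial markers summed to 2.72 to 3.79 CPM in KO libraries and 5.76 to 6.25 CPM in WT libraries. Pecam1 and Cdh5 averaged 0.366 and 0.0368 CPM in KO, against 0.301 and 0.0529 CPM in WT, and Cldn5 had 0 counts in all 6 libraries. Kdr fell to 1.13 CPM in KO, against 5.35 CPM in WT, and Tek rose to 1.68 CPM in KO, against 0.287 CPM in WT. The 7 leukocyte markers summed to 3.02 to 3.68 CPM in KO and 5.29 to 8.08 CPM in WT, with Cd3e at 0 counts. The 6 pericyte and fibroblast markers summed to 448 to 491 CPM in KO and 490 to 526 CPM in WT, nearly all of it Dcn, at 465 CPM in KO, against 496 CPM in WT. Of these, Pdgfrb rose to 4.74 CPM in KO, against 1.08 CPM in WT, and Thy1 had 0 counts in KO, against 69, 92 and 85 counts in WT libraries. The part of these transcripts in the falls of Nid1, Col4a1 and Col4a2 was not tested.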

How the data were processed

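The deposited table held raw counts of reads per Ensembl gene in 6 libraries, not normalized. Per the labels' protocols, an NEBNext Ultra II kit turned 1.3 ug of total RNA into each library. The submitters' processing notes name the aligner STAR 2.5.2b, the Subread 1.5.2 package, Trimmomatic 0.36, bcl2fastq 2.17, DESeq2 and the build GRCm38. The annotation release and strand setting were not given in the sources used here. Symbols, positions and merged exon lengths came from GENCODE M21, which matched 49056 of 49315 gene IDs, and 1 list symbol was matched through a synonym. Promoters came from RefSeq (GRCm38.p6).

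The test was edgeR 4.0.16 (R 4.3.3), with filterByExpr (minimum count 10), TMM scaling, a robust quasi-likelihood fit of genotype and Benjamini-Hochberg (BH) adjustment over 16033 genes. The script was tested on simulated data in which far fewer genes were changed than were called here. Scaling under such wide change was therefore not tried. Log2 changes are fitted, KO over WT. Alternatives were other scalings and filters, DESeq2 1.42.0, limma 3.58.1 voom, a replicate block, an adjusted p under 0.01 and omission of each library.

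The members and lists were chosen with earlier results of these data known. Named genes were the 10 members, up to 4 called genes of at least 1 CPM per list with the greatest change, genes next to a member, and the 5 genes of at least 5 CPM most like Col4a1 and Col4a2. Other genes of the lists that are given by name were chosen after their values were seen. A few genes of the lists are not reported here by name. A count of 0 allows up to 3 counts, or 0.0736 to 0.0885 CPM per library, and covers counting error only.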

Additional observations from a re-analysis of the deposited data

How the results depend on the processing

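Over the 14 other fits (scalings, filters, tests, the replicate block and the omission of each library), the calls of Nid1, Col4a1, Col4a2, Hspg2, Lamb1 and Col4a6 kept their direction and their side of the threshold, at log2 changes of -5.66 to -4.97, -3.39 to -3.2, -3.11 to -2.81, -0.74 to -0.59, -0.49 to -0.31 and 0.18 to 0.36. Lama5 ranged from -0.36 to -0.18, with BH-adjusted p of 2.07e-06 to 0.0553 over these edgeR, DESeq2 and limma fits. With library totals, 5 of the 10 genes were called lower and 2 higher, the added gene being Col4a5. Without each library in turn, 6 were called lower and 1 to 2 higher, with 2 when KO replicate 2 was left out. Over all tested genes, these omissions called 7587 to 10002 genes, against 8925 with all libraries. The most, 10002, were called without KO replicate 2, so the added call came with more calls across the whole table. Small changes are therefore relative to TMM scaling.

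Of the genes not called, Nid2 and Lamc1 changed sign in some fits, and Col4a5 stayed between 0.02 and 0.19. Nid2 was at -0.01 in limma voom and without WT replicate 2, at -0.00 with the replicate block, and between -0.2 (without KO replicate 3) and 0.21 (without KO replicate 2) with 1 library left out. Lamc1 was at 0.02 with upper quartiles, 0.09 with library totals and from -0.07 to 0.01 with 1 library left out, where it was 0.01 without KO replicate 2. Lamc3 has no value under the filter of 1 CPM, which it did not pass. The causes were not tested.

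The numbers of the labels did not pair the libraries, since deviations of same-numbered libraries correlated at -0.059, 0.0513 and 0.0283. With the replicate block 8878 genes were called, against 8925 without it, and the calls of the 10 genes were as without it. Library totals gave 5771 higher and 3294 lower genes, against 4463 and 4462 with TMM. At counts of 19 to 80 per KO library, the levels of Nid1, Col4a1 and Col4a2 in KO carry more counting error than those of the other 7 genes.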

Other observations

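Dystroglycan binds laminin and perlecan through a sugar chain that a set of enzymes builds. Of 11 such genes, 5 rose and 5 fell in KO, beside 27.8% of all tested genes each way. Their median log2 change was 0.09. B4gat1, which primes the chain, was at 21.5 ± 2.06 CPM in KO, against 12.0 ± 0.536 CPM in WT and rose by 0.84 (BH-adjusted p = 2.82e-05, edgeR's quasi-likelihood test), and Pomgnt2 rose by 0.8. Rxylt1 was at 27.0 ± 3.7 CPM in KO, against 40.7 ± 0.92 CPM in WT, and Pomgnt1 at 35.4 ± 2.08 CPM in KO, against 46.9 ± 1.02 CPM in WT, log2 changes of -0.59 and -0.41 (SD, n = 3 each).

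The genes whose log2 CPM followed the mean of Col4a1 and Col4a2 most closely over the 6 libraries were Pcsk6, Crybg1, Slc16a6, Aoc2 and Nes, with Pearson's r of 0.9993 to 0.9999. The 6 libraries differ in genotype, and 345 of 10468 genes of at least 5 CPM had an r above 0.99. Pcsk6, a proprotein convertase gene, was at 0.41 CPM in KO, against 7.76 CPM in WT, and Nes (nestin) at 0.575 CPM in KO, against 32.4 CPM in WT. Correlation does not measure the size of a fall. Crybg1, Slc16a6 and Aoc2 fell much less than Col4a1 and Col4a2, with log2 changes of -1.11, -1.11 and -0.52.

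Next to Nid1, Gpr137b was at 11.8 CPM in KO, against 14.3 CPM in WT (log2 change -0.28) and Lyst at 20.5 CPM in KO, against 20.8 CPM in WT (-0.02). Next to the Col4a1 and Col4a2 pair, Irs2 was at 25.5 CPM in KO, against 48.0 CPM in WT (-0.91) and Rab20, whose annotated span lies 4231 bases from that of Col4a2, at 1.65 CPM in KO, against 2.16 CPM in WT (-0.39, BH-adjusted p = 0.103, edgeR's quasi-likelihood test). Gpr137b and Irs2 passed the test, and the differences between these changes and those of the members were not tested.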
